A study of Mus musculus with 8 samples.

Results

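RAW 264.7 cells, a macrophage-like line derived from BALB/c mice, were treated with one of a pair of bacteria, Lactobacillus acidophilus (strain MTCC-10307) or Bacillus clausii (strain MTCC-8326), and the response after 1 h is described here. The 1 h samples are 2 of the 8 arrays of the series, 1 for each bacterium, chosen by the time in their titles. On each, RNA of treated cells carried the dye Cy5 and RNA of time-matched untreated cells carried Cy3. The groups are therefore L. acidophilus for 1 h and B. clausii for 1 h, each at 100 bacteria per cell, and their untreated counterparts. The other 6 arrays hold the same treatments after 2, 4 and 6 h. Each channel holds RNA of 3 cultures, combined in equal amounts, so that every bacterium and time has 1 array. The labels do not say whether both arrays of a time used the same untreated RNA. Fewer cells of a type and less RNA per cell cannot be told apart in such bulk samples. The title of the series gives its purpose as following expression over time after exposure to potential probiotic strains.

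Macrophages sense bacterial cell wall components and nucleic acids through Toll-like receptors and related sensors, whose signalling through NF-kB and MAP kinases switches on primary response genes without new protein synthesis. The earliest of these genes encode chemokines, cytokines, transcription factors such as those of the AP-1, Egr and Klf families, and inhibitors that later shut the response down. Activated macrophages are also known to raise glucose uptake and to use hypoxia-inducible factor, the unfolded protein response of the endoplasmic reticulum and the antioxidant factor NRF2 under various forms of stress.

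Every ratio below is log2 of treated over untreated signal on 1 array. On the L. acidophilus array 48.1% of probes were well above background in the treated channel and 46.1% in the untreated channel, and on the B. clausii array the shares were 39.6% and 42.8%. No spot was saturated on either. Probes spotted more than once had a median SD between their spots of 0.105 on the L. acidophilus array and 0.123 on the B. clausii array, on the log2 ratio scale. Of 12 macrophage markers 9 passed the filter on dim probes, and the brightest of them, Lyz2 (lysozyme), reached a log2 signal of 15.38 in treated and 14.62 in untreated cells on the L. acidophilus array. Of the markers of T, B, epithelial, fibroblast and endothelial cells, the brightest signal on that array was 10.56 in treated and 10.44 in untreated cells, in the B cell list. Those of the epithelial, fibroblast and endothelial lists stayed at or below 6.96 in treated and 6.97 in untreated cells.

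Both arrays held places where dim spots stood out. On the B. clausii array, a stretch of 754 spots in columns 8 to 16, ending at row 310, had a median local background of 38.0 in the treated channel, against 34.0 over the other spots, and the dim spots there had a median log2 ratio of 0.18, against -0.01 elsewhere. The same stretch of the L. acidophilus array had a median ratio of -0.01 among dim spots and 0.00 elsewhere. It holds 1.74% of the spots and 306 of the 14807 genes tested (2.07%), and none of the 32 genes described next. On the L. acidophilus array, the spots of Olfr151 and Olfr1116 on the last row, 532, had treated local backgrounds of 83.0 and 93.0, against a median of 34.0. Whether these places account for the values there was not tested.

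After 1 h the largest increases were in chemokine genes such as Cxcl2, in hypoxia-responsive genes such as Adm, and in Plau (urokinase), Klf2 (a transcription factor) and Slc2a1 (a glucose transporter). Of 14807 genes tested, 5189 (35.0%) passed an adjusted p under 0.05 in the limma fit for the mean of the 2 arrays, 2684 higher (18.1%) and 2505 lower (16.9%). Most of these changes were small, with a median size of 0.31 on the log2 scale among the higher and 0.30 among the lower genes. Only 32 genes (0.216%) both passed the test and were at least 2-fold higher, and 0 (0.0%) were at least 2-fold lower, also at an unadjusted p under 0.05. All 32 were well above background in both channels on both arrays. The spread behind these p-values was the disagreement of the 2 bacteria across the 4 times. The count was 2916 without the L. acidophilus 1 h array, 1778 without the B. clausii 1 h array and 956 with local backgrounds as deposited. That last setting keeps outlier backgrounds, of 150 spots on the L. acidophilus array and 8 on the B. clausii array. The SD over genes was then 0.127 and 0.278, against 0.235 and 0.294 in the ratios reported. Whether this accounts for the lost calls was not tested. The spread behind the p-values holds no scatter between cultures. A dye effect of a single gene cannot be told apart from a response in a mean of 2 arrays with the same dye orientation.

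Directions depended on how the arrays were scaled. With each array centred on its median in place of the loess normalization, the median of all genes tested moved to -0.11 on the L. acidophilus array, to -0.46 on the B. clausii array and to -0.28 for their mean. The test then called 8373 genes, 524 higher and 7849 lower. On that scale 4 hypoxia targets were called higher and 10 lower, 5 and 3 ER genes, 2 and 9 immediate early genes, 5 and 13 ribosomal protein genes, 5 and 2 chemokine genes, 4 and 1 proteases, and 0 and 13 NRF2 genes. Amino-acid transporters had 0 higher and 6 lower, cholesterol genes 0 and 11, glycolysis genes 2 and 9, ATF4 genes 1 and 11, and phagocytic receptors 0 and 3. NF-kB genes had 1 higher and 10 lower, Toll-like receptor genes 1 and 13, TNF family genes 1 and 7, inflammatory cytokines 2 and 3, Kruppel-like factors 1 and 3, MAP kinase phosphatases 0 and 8, signalling brakes 0 and 6, prostaglandin genes 0 and 9, and interferon-stimulated genes 0 and 5. Relative to the median of all genes, the medians of the hypoxia, ER, immediate early, ribosomal, chemokine, protease and NRF2 lists kept their sign under each of 11 settings. With local backgrounds as deposited, 12 ER genes were called higher and 0 lower, 13 and 2 ribosomal protein genes, and 6 and 1 hypoxia targets. Chemokine genes then had 4 and 0, immediate early genes 3 and 1, proteases 3 and 0, amino-acid transporters 1 and 0, and NRF2 genes 0 and 6. Under this setting no call was left among Kruppel-like factors, MAP kinase phosphatases, signalling brakes, prostaglandin genes and interferon-stimulated genes. Antigen presentation genes had 0 higher and 1 lower, cytokines 2 and 0, TNF family genes 2 and 1, and ATF4 genes 2 and 1. Glycolysis genes had 5 and 0, cholesterol genes 4 and 0, and phagocytic receptors 2 and 0. The 15 highest genes stayed higher and the 15 lowest stayed lower under all alternatives run.

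Cxcl2, a chemokine that attracts neutrophils, had the highest ratios, 2.06 with L. acidophilus and 2.35 with B. clausii. The mean was 2.21 ± 0.18 (SE of the fit), a 4.62-fold increase with an adjusted p of 0.00019. Adm, the vasodilator peptide adrenomedullin, followed with ratios of 1.97 and 2.09 (mean 2.03 ± 0.10, adjusted p = 3.41e-05). Ankrd37, an ankyrin repeat protein known as a target of hypoxia-inducible factor, had ratios of 1.33 with L. acidophilus and 1.56 with B. clausii. Both arrays thus placed these 3 genes at more than 2-fold, with the B. clausii ratio the higher in each. The adjusted p of Cxcl2 was 0.126, with a mean of 1.23, when local backgrounds were used as deposited, and it lay between 1.04e-08 and 0.126 over 22 alternative settings.

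The 250 bases upstream of the annotated start of these genes are shown because chemokine and hypoxia targets are known to be controlled there. Sequences are from the RefSeq annotation of GRCm38.p6, which held an entry for 9 of the 15 highest genes, and are written 5′ to 3′ on the strand of the gene. The 3 windows lie at chr5:90903649-90903898 (plus strand, Cxcl2), chr7:110627407-110627656 (plus strand, Adm) and chr8:45999851-46000100 (minus strand, Ankrd37). Capitals mark matches to a loose form of the NF-kB site (GGG, any pair of bases, TTTCC) or to ACGTG, the core of the hypoxia response element, each searched on both strands. These motifs do not overlap here.
Cxcl2: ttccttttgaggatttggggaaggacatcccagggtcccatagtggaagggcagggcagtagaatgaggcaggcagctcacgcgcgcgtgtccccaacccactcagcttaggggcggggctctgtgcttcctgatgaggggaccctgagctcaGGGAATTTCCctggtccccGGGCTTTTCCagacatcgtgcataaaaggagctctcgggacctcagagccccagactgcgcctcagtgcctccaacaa
Adm: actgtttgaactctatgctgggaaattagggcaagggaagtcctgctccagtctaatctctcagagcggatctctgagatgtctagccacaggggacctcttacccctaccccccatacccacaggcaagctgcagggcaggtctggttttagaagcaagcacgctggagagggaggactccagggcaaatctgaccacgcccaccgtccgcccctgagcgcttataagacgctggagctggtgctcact
Ankrd37: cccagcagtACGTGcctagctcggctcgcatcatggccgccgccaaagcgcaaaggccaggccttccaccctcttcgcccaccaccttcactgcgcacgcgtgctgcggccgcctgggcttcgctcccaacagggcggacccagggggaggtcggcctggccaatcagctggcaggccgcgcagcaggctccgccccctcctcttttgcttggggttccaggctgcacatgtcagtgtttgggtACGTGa
The Cxcl2 window held 2 matches to the loose NF-kB site, starting 97 and 78 bases before the start, and 1.4% of 27025 mouse promoter windows of this length held at least 1. The Ankrd37 window held 2 matches to ACGTG, starting 241 and 6 bases before the start, and 16.6% of all windows held at least 1. ACGTG was found in 3 of the 9 windows (Slc2a1, Ankrd37 and Ddit4) and the loose NF-kB site in 1 (Cxcl2). Sites of AP-1, of the cyclic AMP response and of ATF4 with C/EBP were also searched and found in 0 of the 9. A TATA box was found in 1 (Spp1). The Adm window held no match to the NF-kB site or to ACGTG.

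**Figure D1:**
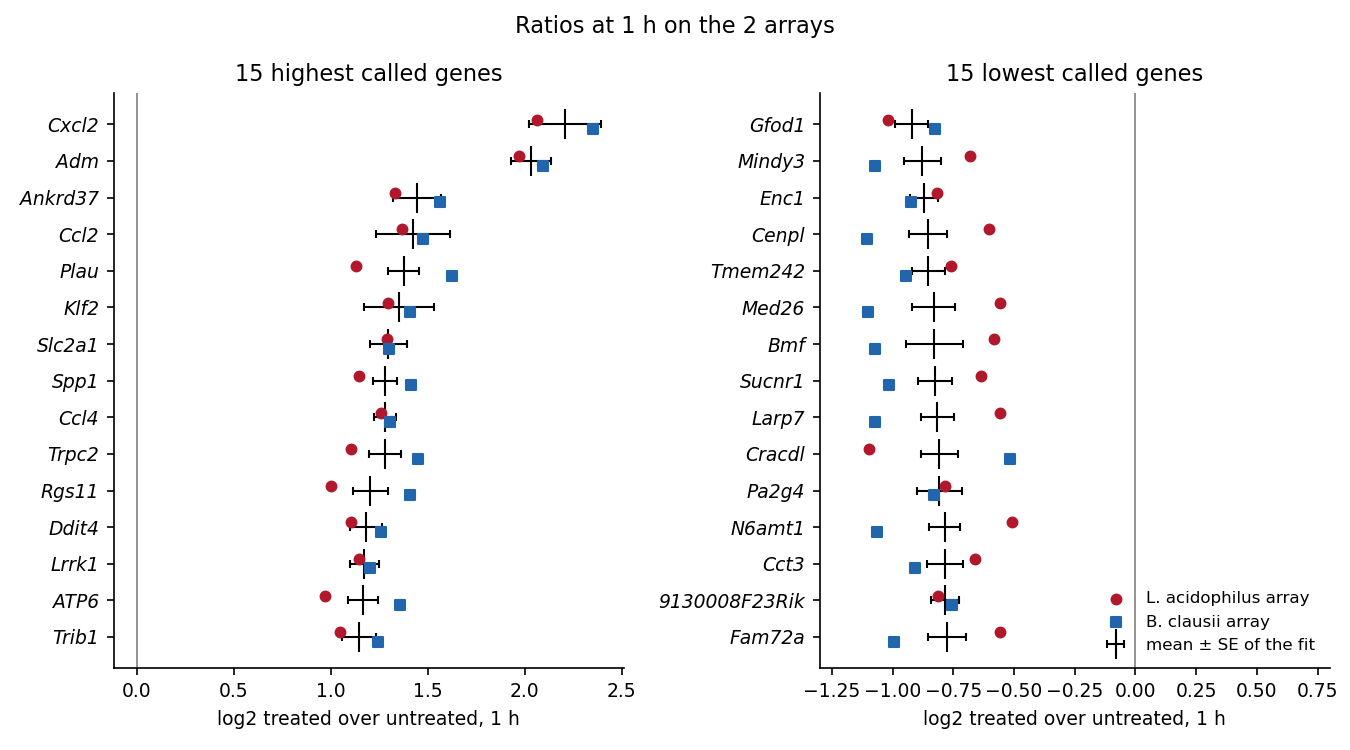
Log2 treated over untreated ratios at 1 h (horizontal axis) of the 15 highest (left) and 15 lowest (right) called genes. Circles are the L. acidophilus array, squares the B. clausii array, and bars the mean ± SE of the limma fit. Cxcl2 and Adm stand apart at means of 2.21 and 2.03, while the lowest mean, of Gfod1, is -0.92.

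Beside Cxcl2, 5 other chemokine genes rose. Ccl2, which recruits monocytes, had ratios of 1.37 with L. acidophilus and 1.48 with B. clausii (mean 1.42 ± 0.19, adjusted p = 0.000956). Ccl4 and Ccl3, the macrophage inflammatory proteins, had ratios of 1.26 and 1.30 (Ccl4) and of 0.96 and 1.21 (Ccl3). Ccl7, a second monocyte attractant, had ratios of 0.77 with L. acidophilus and 1.17 with B. clausii, and Ccl9 0.27 and 0.60. Of 17 chemokine genes 11 were tested, and 6 of these rose and 0 fell (18.1% and 16.9% of all genes). The median of the list was 0.43, against 0.01 over all genes tested. Cxcl10 (0.19 and 0.11), Cxcl16 (-0.08 and 0.08) and Ccl5 (-0.18 and -0.13) did not pass the test.

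Of 19 inflammatory cytokine genes 10 were tested, of which 5 rose and 0 fell (18.1% and 16.9% of all genes). The median of the list was 0.10. Ltb lies in the stretch of spots, and without the stretch 4 of 9 rose, with a median of 0.012. Ltb, the membrane ligand lymphotoxin beta, had ratios of 0.88 with L. acidophilus and 0.98 with B. clausii (adjusted p = 0.000269). Tnf, the central macrophage cytokine, had ratios of 0.31 and 0.65 (mean 0.48, adjusted p = 0.00206), and Osm, oncostatin M, had ratios of 0.46 and 0.50. Il10, the main anti-inflammatory cytokine, did not pass the test, with ratios of -0.06 and -0.09.

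Among NF-kB subunits and feedback genes Tnfaip3, the highest, which encodes the ubiquitin-editing enzyme A20 that shuts off NF-kB signalling, had ratios of 0.70 with L. acidophilus and 0.93 with B. clausii. Nfkbia, the inhibitor IkB alpha, had ratios of 0.21 and 0.56, Nfkb1, which encodes the p105 and p50 proteins, 0.42 and 0.52, and Nfkbiz 0.48 and 0.49. Of 16 genes tested in the list, 5 rose and 3 fell (Cyld, Rela and Nfkbid), with a median of -0.03, where 18.1% of all genes rose and 16.9% fell. With local backgrounds as deposited 1 rose and 0 fell. Relative to the median of all genes, the list median turned positive under 4 of 11 alternative settings.

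Of 21 Toll-like receptor and adaptor genes tested, 5 rose and 4 fell, where 18.1% of all genes rose and 16.9% fell, so that these counts set the list little apart. With local backgrounds as deposited 0 rose and 1 fell. Cd180, a B cell and macrophage homologue of the endotoxin receptor, had ratios of 0.77 with L. acidophilus and 1.12 with B. clausii, and Ticam1, the adaptor TRIF, 0.42 and 0.61. Myd88, the common adaptor of most Toll-like receptors, fell with ratios of -0.33 and -0.19, and Traf6, the ubiquitin ligase downstream of it, with -0.07 and -0.52. Tlr2 (-0.01 and -0.13) and Tlr4 (0.05 and 0.03), the receptors for lipoproteins and endotoxin, did not pass the test. Of 15 genes of the TNF family and its TRAF adaptors, 6 rose and 3 fell, with Tnf and Ltb among those that rose.

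Of 20 immediate early and AP-1 genes tested, 11 rose and 3 fell (18.1% and 16.9% of all genes), with a median of 0.29. Maff, a small Maf transcription factor, had ratios of 0.74 with L. acidophilus and 0.79 with B. clausii. Egr2, Ier2 and Junb had ratios of 0.62 and 0.72 (Egr2), 0.52 and 0.78 (Ier2), and 0.46 and 0.70 (Junb). Atf3, a stress-induced repressor of inflammatory genes, had ratios of 0.64 and 0.60. Fos, the classical immediate early gene, went the other way, with ratios of -0.46 on both arrays (adjusted p = 0.00097), and Btg1 and Arc also fell. Within the AP-1 family, Junb and Maff were thus higher and Fos lower than in untreated cells.

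The Kruppel-like factor Klf2, an anti-inflammatory transcription factor of macrophages and endothelium, had ratios of 1.29 with L. acidophilus and 1.41 with B. clausii on its brightest probe (adjusted p = 0.000978). Its second probe read -0.11 and 0.04, so the probes disagreed. Of 8 genes of the family tested, 4 rose (Klf2, Klf7, Klf6 and Klf9) and 1 fell (Klf4, -0.34 and -0.50). Among 15 MAP kinase phosphatases and feedback genes, 4 rose and 2 fell, where 18.1% of all genes rose and 16.9% fell. Dusp1, which inactivates p38 and JNK, was the highest with ratios of 0.51 and 0.59. The Ras pathway inhibitors Spred1 (-0.28 and -0.41) and Spred2 (-0.42 and -0.35) fell. In both lists 0 genes were called with local backgrounds as deposited.

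Hypoxia targets rose while the gene of their transcription factor fell. Of 21 tested, 12 rose and 1 fell (18.1% and 16.9% of all genes), with a median of 0.26. Beside Adm and Ankrd37, Ddit4, an inhibitor of the growth kinase mTORC1, had ratios of 1.10 with L. acidophilus and 1.26 with B. clausii, and Vegfa, the endothelial growth factor, 0.66 on both. The collagen hydroxylase P4ha1 had ratios of 0.65 and 0.75 and the mitophagy receptor Bnip3 0.53 and 0.69. The member that fell was Hif1a, with ratios of -0.31 and -0.59 (adjusted p = 0.00341). Car9, carbonic anhydrase 9, did not pass the test, with ratios of -0.30 and -0.03.

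Of 17 glycolysis genes tested, 8 rose and 2 fell (18.1% and 16.9% of all genes), led by the steps at which glucose enters. Slc2a1, the glucose transporter GLUT1, had ratios of 1.29 with L. acidophilus and 1.30 with B. clausii (mean 1.30 ± 0.10, adjusted p = 0.000112). Hk2, the hexokinase that phosphorylates glucose, had ratios of 1.02 and 0.79, Slc16a3, the lactate exporter, 0.75 and 0.67, and Pkm, pyruvate kinase, 0.48 and 0.82. Eno1 (-0.42 and -0.29) and Pfkm (-0.14 and -0.42) fell, and Ldha (0.06 and -0.13) and Gapdh (-0.06 and 0.18) did not pass the test. The median of the list was 0.20, and relative to the median of all genes it turned negative under 3 of 11 settings, the processed signals among them.

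Genes of the endoplasmic reticulum rose broadly. Of 19 chaperone and unfolded protein response genes tested, 15 rose and 0 fell (18.1% and 16.9% of all genes). The list had a median of 0.47. Herpud1, a component of ER-associated degradation, had ratios of 0.99 with L. acidophilus and 1.13 with B. clausii (mean 1.06 ± 0.06, adjusted p = 5.9e-05). Manf, a secreted ER stress factor, had ratios of 0.81 and 1.10, the disulfide isomerase Pdia6 0.78 and 1.04, and Hspa5, the chaperone BiP, 0.63 and 1.04. Xbp1, a transcription factor of this response, did not pass the test (-0.02 and 0.09), which here counts all its transcripts and not its spliced form. Under 11 settings the median of the list stayed above that of all genes, by 0.28 to 0.48.

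Of 19 genes of the related ATF4 programme tested, 5 rose and 1 fell (18.1% and 16.9% of all genes), with a median of 0.06. Its highest member was Herpud1, which the ER list also holds. Ddit3, the stress factor CHOP, had ratios of 0.51 with L. acidophilus and 0.63 with B. clausii, and Stc2, stanniocalcin 2, 0.39 and 0.60. Atf4 itself (-0.16 and 0.05), the asparagine synthetase Asns (-0.21 and 0.00) and Trib3 (0.12 and -0.17) did not pass the test, and the serine synthesis enzyme Phgdh fell (-0.47 and -0.45). Among 14 amino-acid transporters 8 rose and 0 fell, led by Slc43a2 (0.41 and 0.62) and Slc1a5, a glutamine transporter (0.39 and 0.61). Of 19 cholesterol synthesis genes 9 rose and 3 fell. Those that rose included Msmo1, a sterol oxidase (0.54 and 0.61).

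Of 13 NRF2 antioxidant genes tested, 8 fell and 0 rose (16.9% and 18.1% of all genes), with a median of -0.26. Gclc, G6pdx and Osgin1 lie in the stretch of spots, and without the stretch 5 of 11 fell, with a median of -0.17. Gclc, which makes the first step of glutathione synthesis, had ratios of -0.34 with L. acidophilus and -0.78 with B. clausii (adjusted p = 0.000745). Hmox1, heme oxygenase 1, had ratios of -0.25 and -0.60, Txnrd1, thioredoxin reductase, -0.28 and -0.64, and Nfe2l2, the gene of NRF2, -0.40 and -0.43. Keap1, its inhibitor, also fell (-0.38 and -0.79). Srxn1 and Sqstm1 did not pass the test, at -0.02 and -0.01 (Srxn1) and -0.08 and -0.09 (Sqstm1). The list median stayed below that of all genes under 11 settings, the relative value lying between -0.46 and -0.18.

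Proteases that act outside the cell rose. Of 16 matrix protease and urokinase genes 10 were tested, of which 8 rose and 0 fell (18.1% and 16.9% of all genes). The list had a median of 0.49. Plau, the urokinase plasminogen activator, had ratios of 1.13 with L. acidophilus and 1.62 with B. clausii on its brightest probe, and its second probe read 0.42 and 0.29. Plaur, the urokinase receptor, had ratios of 0.47 and 0.63, and the metalloprotease Adamts1 0.78 and 1.26. Urokinase and its receptor were thus both higher.

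Of 12 prostaglandin and leukotriene genes, 1 rose and 4 fell, where 18.1% of all genes rose and 16.9% fell. Ptgs2, the inducible cyclooxygenase 2, was among those that fell, with ratios of -0.50 with L. acidophilus and -0.46 with B. clausii (adjusted p = 0.00184). Of 14 interferon-stimulated genes tested 3 rose and 0 fell, with a median of 0.06. The highest of them, Oasl1, had ratios of 0.23 and 0.31, and Isg15, a ubiquitin-like interferon-induced protein, did not pass the test (-0.18 and -0.20). Cytokine signalling brakes, of which 11 were tested, held 3 genes that rose, among them Socs1 (0.43 and 0.23), and 3 that fell. In all these lists 0 genes were called with local backgrounds as deposited.

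More ribosomal protein genes rose than fell. Of 30 tested, 17 rose and 3 fell (18.1% and 16.9% of all genes), with a median of 0.27. Rps24 (0.86 with L. acidophilus and 1.04 with B. clausii) and Rplp1 (0.83 and 1.04) were the highest, and Rpl18 (-0.52 and -0.55) was the lowest. The median relative to all genes lay between 0.08 and 0.32 over the alternative settings. The counts depended on scaling, with 9 higher and 4 lower with the processed signals and 5 and 13 with median centring. These genes have many near-identical pseudogene copies, whose transcripts a probe may not separate.

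**Figure D2:**
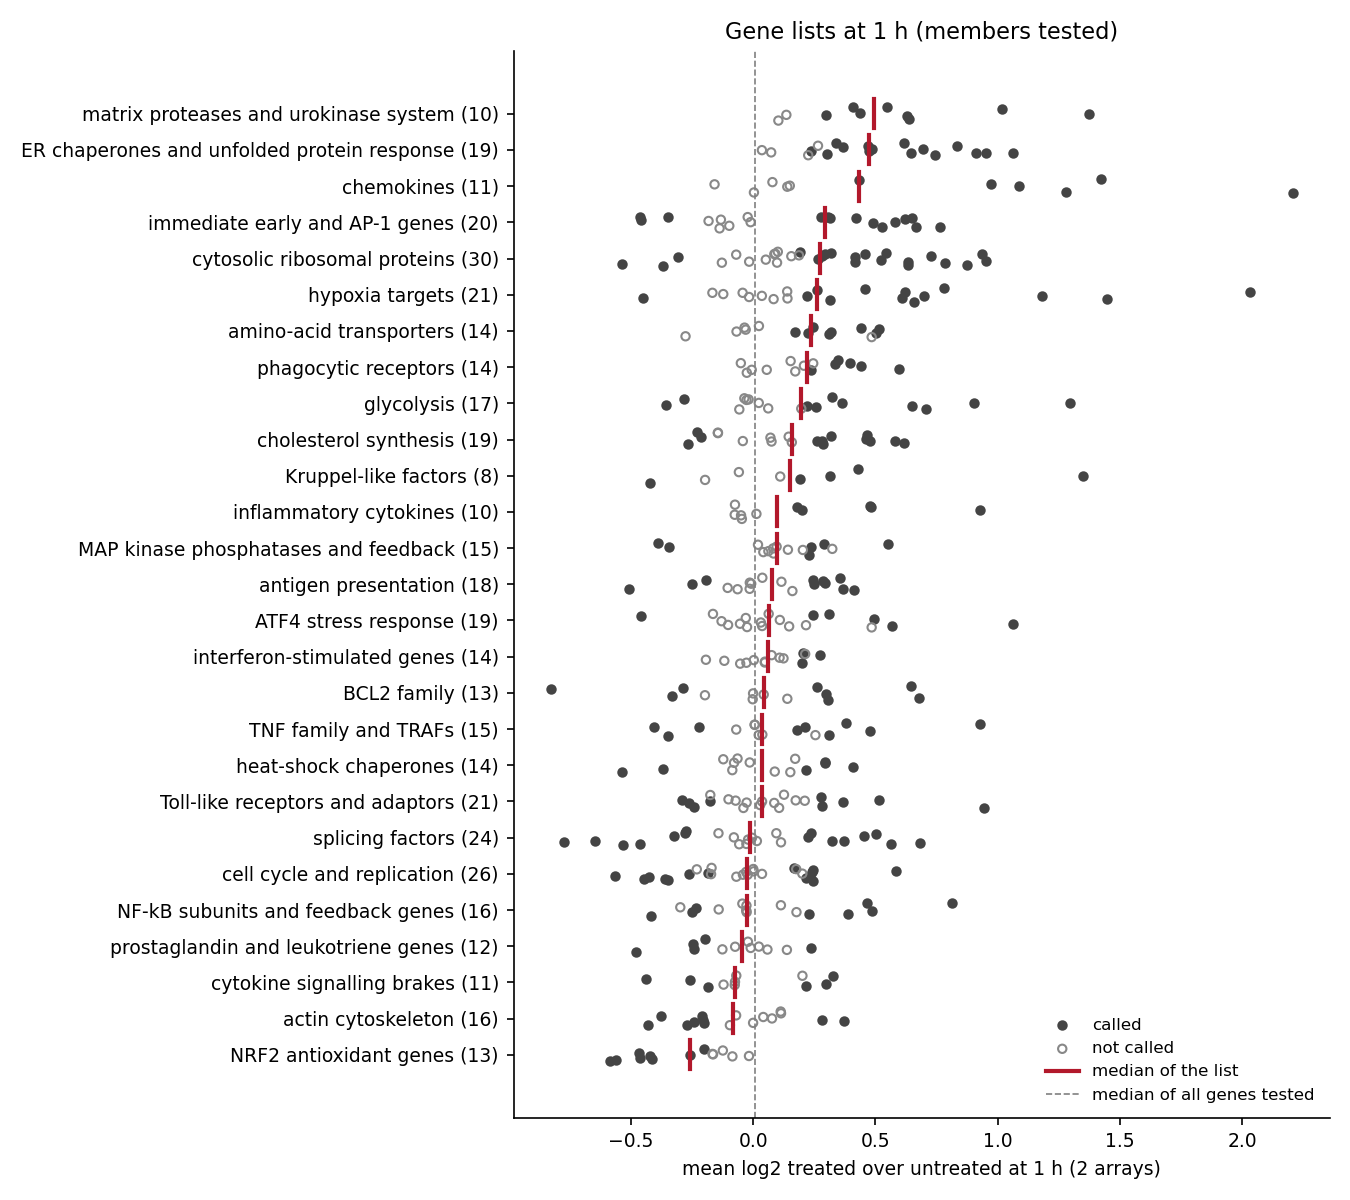
Mean log2 treated over untreated ratio at 1 h (horizontal axis, 2 arrays) of each tested member of the gene lists, with the number tested in brackets. Filled points passed an adjusted p under 0.05, open points did not, red bars are list medians and the dashed line is the median of all genes. The protease, ER and chemokine lists have the highest medians (0.49, 0.47 and 0.43) and the NRF2 list the lowest (-0.26).

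Of the remaining genes among the 15 highest, Spp1, which encodes osteopontin, had ratios of 1.15 with L. acidophilus and 1.41 with B. clausii. Trib1, a Tribbles pseudokinase that controls degradation of C/EBP factors, had ratios of 1.05 and 1.24. ATP6, a mitochondrially encoded subunit of the ATP synthase, had ratios of 0.97 and 1.36, and Rgs11, a regulator of G-protein signalling, 1.00 and 1.41. For a pair of genes the other probes did not follow the brightest. Lrrk1, a kinase, read 1.14 and 1.20 on its brightest probe, -0.20 and -0.32 on another, and 0.17 and 0.20 on the last. Trpc2, a cation channel, read 1.10 and 1.45 against 0.14 and 0.17. The other probes were dim, at mean log2 signals over channels and arrays of 6.73 and 6.44 (Lrrk1) and 6.44 (Trpc2). The brightest were at 8.86 (Lrrk1) and 8.89 (Trpc2). With local backgrounds as deposited, 6 of the 15 highest lost the call, namely Cxcl2, Klf2, Trpc2, Rgs11, Lrrk1 and Trib1.

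The lowest genes changed less than the highest, by 1.89-fold at most. Enc1, Cenpl, Bmf, Sucnr1, Cracdl and 9130008F23Rik lost the call with local backgrounds as deposited, with adjusted p between 0.0515 and 0.511. Gfod1 had ratios of -1.02 with L. acidophilus and -0.83 with B. clausii (mean -0.92 ± 0.07, adjusted p = 9.82e-05). Enc1, a kelch protein that binds actin, had ratios of -0.82 and -0.92 on its brightest probe and -0.03 and -0.09 on another. That other probe was dim, at a mean log2 signal over channels and arrays of 6.31, against 9.70 for the brightest. Sucnr1, the receptor for succinate, had ratios of -0.64 and -1.02, and Cenpl, a centromere protein, -0.60 and -1.10. Bmf, a pro-apoptotic BH3-only protein, had ratios of -0.58 and -1.07, while its second probe, also dim (6.69 against 9.63), read 0.07 and 0.01. Med26, a subunit of the Mediator complex (-0.56 and -1.10), and Larp7, which binds the 7SK RNA (-0.56 and -1.07), were among the genes with the more negative ratio on the B. clausii array. Larp7 and N6amt1 lie in the stretch of spots there, and another probe of Larp7 read -0.10 and -0.61. Mindy3, Tmem242, Cracdl, Pa2g4, N6amt1, Cct3, 9130008F23Rik and Fam72a made up the 15 lowest, with means between -0.88 and -0.78.

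To see which of these values belonged to 1 h, they were set against the mean of 2, 4 and 6 h, where a dye effect that is the same on all arrays cancels. The difference passed an adjusted p under 0.05 for 2937 genes (19.8%), 1441 higher at 1 h (9.73%) and 1496 lower (10.1%). These calls ended when the bacteria were averaged within each time, so that the spread was that between times: 0 genes passed, with 1367 at an unadjusted p under 0.05. They also ended with the processed signals, where 0 passed and 3378 had an unadjusted p under 0.05, and 39 genes passed without the B. clausii 1 h array. Without the L. acidophilus arrays of 2 or 4 h 1861 or 1535 passed, and without the B. clausii arrays of 2 or 4 h 1540 or 1674. With median centring 163 were higher at 1 h and 3665 lower. The position of an array on its slide coincides with its time, so position and time cannot be told apart.

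Cxcl2 had the largest difference, 1.82 ± 0.21. Its ratios with L. acidophilus were 2.06, 1.84, -0.06 and 0.69 at 1, 2, 4 and 6 h, and with B. clausii 2.35, 1.03, -0.79 and -0.39. Ccl4 was higher at 1 h by 1.43 ± 0.06, with ratios of 1.26, 0.88, -0.84 and -0.64 over the 4 times for L. acidophilus, and of 1.30, 1.03, -0.78 and -0.52 for B. clausii. Both genes were above the untreated cells at 1 and 2 h, and Ccl4 was below them at 4 and 6 h with both bacteria. Herpud1 had ratios of 0.99 and 1.13 at 1 h and of -1.18 and -1.19 at 6 h (L. acidophilus and B. clausii), a difference of 1.28 ± 0.07 between 1 h and the later mean.

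Adm (1.39 ± 0.12), Klf2 (1.32 ± 0.21), Ccl3 (1.25 ± 0.12) and Trib1 (1.23 ± 0.10) followed in the size of the difference. Mfsd2a, a transporter of lysophospholipids, Maff and Msmo1 completed the 10, at 1.02 ± 0.06, 1.02 ± 0.07 and 0.96 ± 0.06. Not all genes that were high at 1 h differed from later times. Ccl2 had ratios of 1.37 and 1.48 at 1 h and of 1.78 and 1.42 at 2 h (L. acidophilus and B. clausii), and its difference of 0.42 did not pass (adjusted p = 0.215). That of Lrrk1, 0.08, did not pass either (adjusted p = 0.572).

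**Figure D3:**
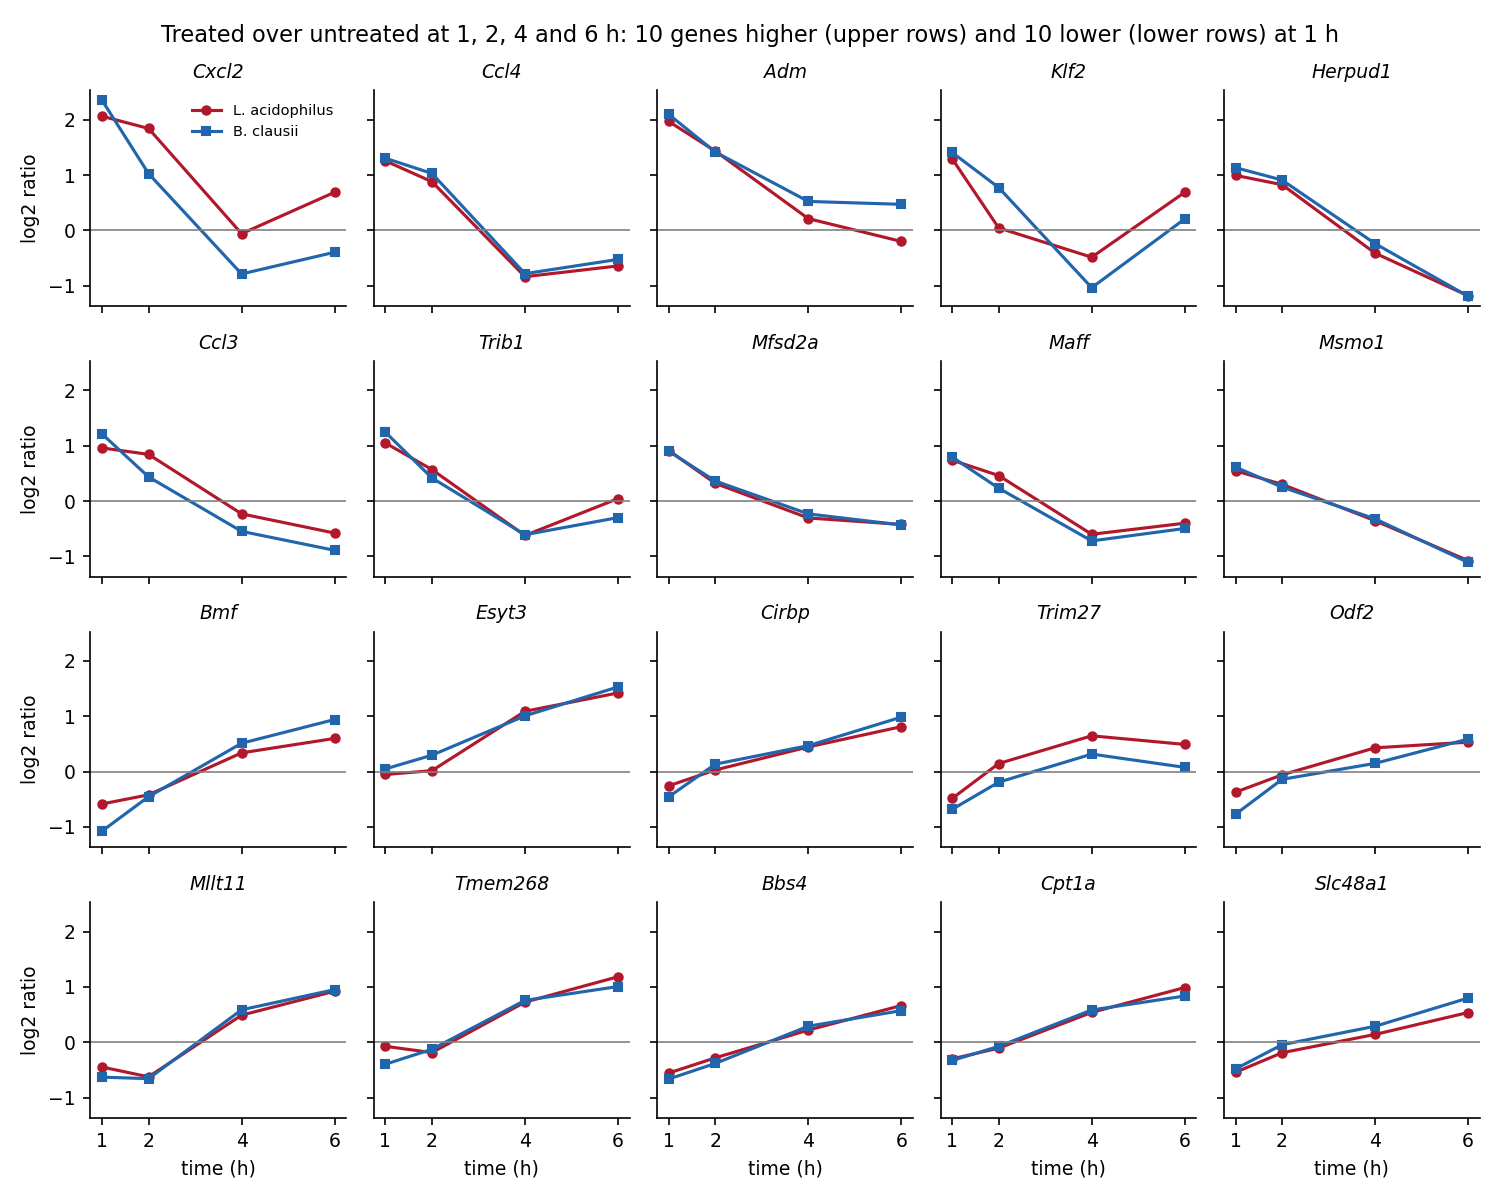
Log2 treated over untreated ratio (vertical axis) at 1, 2, 4 and 6 h (horizontal axis) of the 10 genes with the largest positive (upper rows) and negative (lower rows) difference between 1 h and later times. Circles are L. acidophilus and squares B. clausii, 1 array per point. Ccl4 is at 1.26 and 1.30 at 1 h and at negative ratios at 4 and 6 h with both bacteria, while Esyt3 is at -0.05 and 0.05 at 1 h and reaches 1.42 and 1.53 at 6 h.

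The 10 genes lowest at 1 h relative to later times had ratios below or near 0 at 1 h and above 0 at 6 h. Bmf had the largest difference, -1.08 ± 0.14, with ratios of -0.58 and -1.07 at 1 h and of 0.60 and 0.94 at 6 h (L. acidophilus and B. clausii). Esyt3, an extended synaptotagmin of membrane contact sites, had ratios of -0.05 and 0.05 at 1 h and of 1.42 and 1.53 at 6 h. Cirbp, a cold-inducible RNA-binding protein, had ratios of -0.26 and -0.45 at 1 h and of 0.81 and 0.98 at 6 h. Cpt1a, which brings fatty acids into mitochondria, had ratios of -0.30 and -0.33 at 1 h and of 0.99 and 0.83 at 6 h. Trim27, Odf2, Mllt11, Tmem268, Bbs4 and Slc48a1 made up the 10, with differences between -0.83 and -0.77. Tmem268 and Cpt1a lie in the stretch of spots, and another, dim probe of Cpt1a read 0.02 and -0.03 at 1 h.

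The channels taken singly, after scaling between arrays, show which side of each ratio moved. Over 1, 2, 4 and 6 h the log2 signal of Cxcl2 was 10.13, 9.93, 8.09 and 8.78 in cells given L. acidophilus, and 10.51, 9.26, 7.54 and 7.68 in cells given B. clausii. Its untreated signal lay between 8.07 and 8.32 on all 8 arrays. For Adm the treated signal was 11.71 and 11.78 at 1 h and 9.53 and 10.14 at 6 h, and the untreated signal lay between 9.56 and 9.79. In both genes the treated channel carried the difference. Ccl3 differed: its treated signal was 11.56 and 12.00 at 1 h and 11.80 and 11.03 at 6 h, while its untreated signal was 10.60 and 10.79 at 1 h and 12.38 and 11.92 at 6 h. Slc2a1 had treated signals of 13.89 and 14.11 at 1 h and of 13.04 and 13.52 at 6 h, with untreated signals of 12.60 and 12.81 at 1 h and of 13.36 and 13.35 at 6 h. For these 2 genes the untreated signals were higher at 6 h than at 1 h on both slides, a description without a test, since each channel value is a single array.

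**Figure D4:**
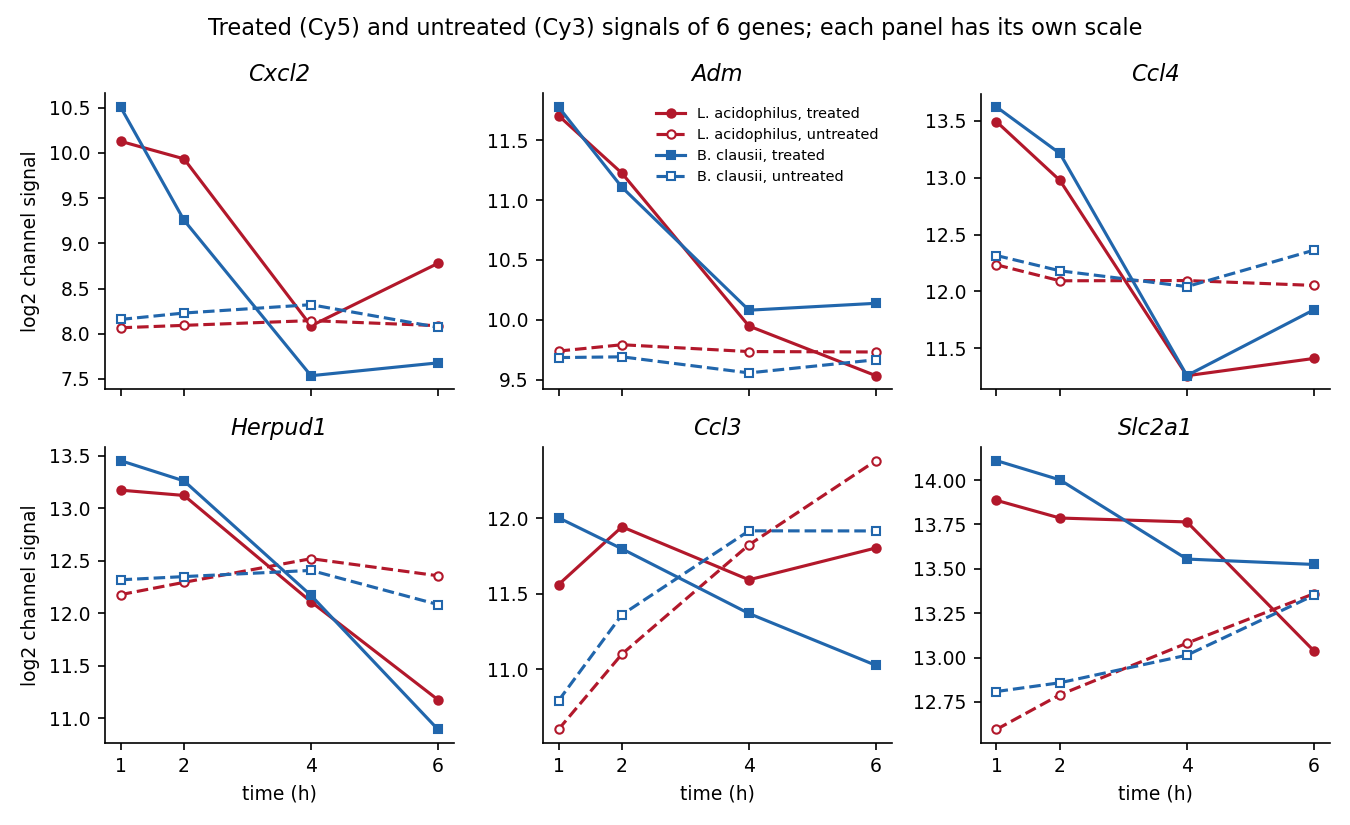
Log2 channel signal (vertical axis, a separate scale per panel) of 6 genes at 1, 2, 4 and 6 h. Filled symbols with solid lines are treated cells and open symbols with dashed lines untreated cells, circles for L. acidophilus and squares for B. clausii. Untreated Cxcl2 stays between 8.07 and 8.32, whereas untreated Ccl3 is 10.60 and 10.79 at 1 h and 12.38 and 11.92 at 6 h.

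For the gene lists the difference from later times was as follows, where 9.73% of all genes were higher at 1 h and 10.1% lower. As over all genes, 0 calls of this difference remained with the processed signals or with the bacteria averaged within times. Of the 19 ER genes 13 were higher at 1 h and 0 lower, with a median difference of 0.36. Of the 21 hypoxia targets 8 were higher and 0 lower, of the 20 immediate early genes 8 were higher and 1 lower, and of the 19 cholesterol genes 8 were higher and 0 lower. Of the 13 NRF2 genes 1 was higher and 6 lower. Ribosomal protein genes held 0 that were higher at 1 h and 7 that were lower among 30, and the 14 interferon-stimulated genes held 0 in either direction, with a median difference of 0.04.

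Each bacterium was also read by itself, without a test, by a threshold of 2-fold. With L. acidophilus 26 genes (0.176%) were at least 2-fold higher and 3 (0.0203%) at least 2-fold lower. With median centring the counts were 11 and 11. With B. clausii 72 genes (0.486%) were at least 2-fold higher and 17 (0.115%) lower, and 18 of the 72 and 2 of the 17 lie in the stretch of spots described above. With median centring 20 were higher and 1932 lower. Among genes measured in both channels, the L. acidophilus array had Cxcl2, Adm, Olfr151, Ccl2, Ankrd37, Klf2, Slc2a1 and Ccl4 at its upper end. Olfr151, an olfactory receptor gene, had a ratio of 1.70 there and lies in row 532, with a treated local background of 83.0. On the B. clausii array it was not above background in either channel. At its lower end were Cst10 (-1.28), Cracdl (-1.10) and Gfod1 (-1.02). The B. clausii array had Cxcl2, Adm, Plau, Ankrd37, Ccl2, Trpc2, Spp1 and Klf2 at the upper end. At its lower end were Rhox5 (-1.33), the peptidyl-prolyl isomerase Ppig (-1.20), Hmgb1-rs17 (-1.15), the Myc partner Max (-1.13), the kinase Rock1 (-1.11), Cenpl, Med26 and Bmf.

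Genes seen in 1 channel only give bounds. On the B. clausii array, Zc3h3 was at least 2.60-fold, Chrnb2 at least 2.42-fold, and D030068K23Rik and Tceal3 at least 2.22-fold higher in treated cells, and all 4 lie in the stretch of spots. Rp1l1 was at least 2.41-fold, Olfr214 at least 1.82-fold and Usp42 at least 1.81-fold lower there, and another probe of Rp1l1 read -0.03. On the L. acidophilus array the largest bound in each direction was at least 1.43-fold higher for 6330407A03Rik and at least 1.95-fold lower for Rhpn2.

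The ratios of the 2 bacteria at 1 h differed by at least 2-fold for 34 genes, 7 (0.0473%) with the higher ratio with L. acidophilus and 27 (0.182%) with the higher ratio with B. clausii. Of the 27, 19 lie in the stretch of spots on the B. clausii array, 22 were above background in the treated channel alone on that array, and 0 differed 2-fold in the same sense at 2 h. With the processed signals 592 genes had the higher ratio with L. acidophilus and 337 with B. clausii, and with median centring 178 and 18. Without the stretch, 15 genes were past 2-fold by the same rule, 7 with the higher ratio with L. acidophilus and 8 with B. clausii. Among the named genes, Ak7, Prom1, D030068K23Rik, Chrnb2, Zc3h3 and Cebpa lie in the stretch. Cebpa, a transcription factor gene of myeloid cells, had ratios of -0.01 with L. acidophilus and 1.43 with B. clausii, and its call among the macrophage markers rests on that spot.

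Only 4 genes were past 2-fold when both channels had to be above background on both arrays, 2 in each direction. Those with the higher ratio with L. acidophilus were Ipo7 and Rhox5, and those with B. clausii were Tsr2 and Gla. Tsr2, which lies in the stretch of spots, had ratios of -0.22 with L. acidophilus and 0.91 with B. clausii, and Gla -0.04 and 1.08. Ipo7, a nuclear import receptor, had ratios of 0.56 with L. acidophilus and -0.73 with B. clausii, a difference of 1.30, and was above background in both channels on both arrays. Its 3 dimmer probes read between -0.10 and 0.12 with L. acidophilus and between -0.46 and 0.26 with B. clausii. At 2 h its ratios were 0.17 and -0.34. Chac1, a glutathione-degrading enzyme and ATF4 target, had ratios of 0.68 and -0.25, a difference short of 2-fold (0.93), and 0.43 and 0.18 at 2 h. Rhox5, a homeobox gene, had ratios of -0.03 and -1.33. With no replicate of either array, none of these differences was tested, and slide and bacterium cannot be told apart.

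**Figure D5:**
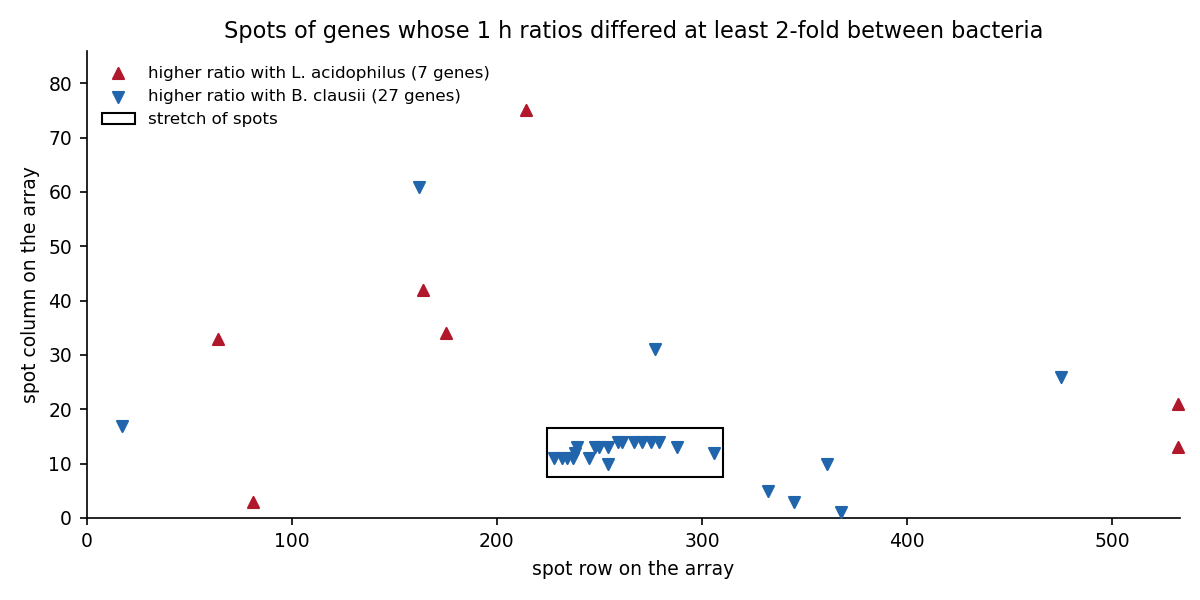
Position on the array (spot row and column) of the genes whose 1 h ratios differed at least 2-fold between the bacteria. Upward triangles have the higher ratio with L. acidophilus (7 genes) and downward triangles with B. clausii (27 genes), and the box is the stretch of spots in columns 8 to 16 that ends at row 310. The box holds 19 of the 27 downward triangles and 0 of the 7 upward ones.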

How the data were processed

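Agilent mouse arrays with a treated and an untreated channel and 41174 probes were used, 2 at 1 h and 6 at later times. Per the file headers, the deposited intensity values give each spot's mean signal and the median of its surroundings, measured with Feature Extraction 10.7.3.1 (10.5.1.1 per the submitters' processing notes). The deposited log10 ratios in the series matrix equal those of the array files, rounded. Samples were grouped by bacterium and time from their titles. Local backgrounds above 3 times the array median that were marked as outliers were set to the median and their spots left out. Background was corrected with normexp (offset 50) and ratios normalized by loess in limma 3.58.1 (R 4.3.3). The filter kept 21274 probes, those well above background in 1 channel on 2 or more arrays, and the brightest represents each of 14807 genes, named through a GRCm38.p6 table. A member can therefore pass through its treated channel alone, and list counts describe the members that passed. Channel values were scaled with Aquantile and are given as log2.

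Limma (lmFit, eBayes, Benjamini-Hochberg over all genes) fitted time and bacterium over the 8 arrays, which leaves 3 residual degrees of freedom (5.80 prior). The contrasts were the mean at 1 h against 0 and 1 h minus the mean of 2, 4 and 6 h. Tested on simulated data of 14807 genes, the 1 h contrast recovered 90.6% of changes of 0.5 log2 and 99.6% of 1 log2, with 7.82% false calls. The later contrast recovered 79.4% and 99.6%, with 6.09% false calls. The simulated ratios held independent noise, few changed genes and no dye, slide or background error. These rates therefore hold for that setting and are not error rates of the arrays. Single arrays were read by a 2-fold threshold. A bound sets the detected signal against the higher of the other channel's own signal and the lowest detected signal of that channel on that array, and is open to dye bias. Precision is limited by the number of arrays.

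The genes named were the 15 with the largest called mean in each direction and the same sign on both arrays, the 10 with the largest called difference from later times, the 8 at each end of each array with up to 4 bounds, the 8 largest differences between bacteria, and members of the gene lists. The lists and rules were chosen with earlier results of these data known. Alternatives covered signals, background, normalization, filters, probes, fit terms, prior, threshold and each array left out. Leaving out a stretch of spots was chosen after seeing the data. Some genes that the rules name are not reported here.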

Additional observations from a re-analysis of the deposited data

Results flagged for a closer look

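The response at 1 h differed from the mean of 2, 4 and 6 h in 2937 genes by the limma test of that difference. On the log2 scale the 10 named genes that were higher at 1 h differed by 1.82 (Cxcl2), 1.43 (Ccl4), 1.39 (Adm), 1.32 (Klf2), 1.28 (Herpud1), 1.25 (Ccl3), 1.23 (Trib1), 1.02 (Mfsd2a), 1.02 (Maff) and 0.96 (Msmo1). The 10 that were lower at 1 h differed by -1.08 (Bmf), -0.90 (Esyt3), -0.83 (Cirbp), -0.83 (Trim27), -0.82 (Odf2), -0.82 (Mllt11), -0.79 (Tmem268), -0.79 (Bbs4), -0.78 (Cpt1a) and -0.77 (Slc48a1). Other probes of Klf2, Bmf, Odf2 and Cpt1a did not follow the brightest one at 1 h. They read 0.43 and 0.56 for 1 further probe of Odf2 and 0.02 and -0.03 for that of Cpt1a (L. acidophilus and B. clausii). Those of Bmf and Cpt1a were dim, at mean log2 signals over channels and arrays of 6.69 and 6.46. Their brightest probes were at 9.63 and 10.04. The Klf2 probe and the Odf2 probe given were at 9.33 and 8.85.

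Among the genes with the largest difference between the bacteria at 1 h, 11 had ratios of opposite sign on the 2 arrays, and that difference was not tested. L. acidophilus minus B. clausii was 1.73 for Olfr151, 1.36 for Rp1l1, 1.30 for Ipo7, 1.23 for Olfr214 and 0.93 for Chac1. It was -1.67 for Ak7, -1.63 for Prom1, -1.56 for D030068K23Rik, -1.53 for Olfr1269, -1.51 for Cst10 and -1.43 for Cebpa. Ak7, Prom1, D030068K23Rik and Cebpa lie in the stretch of spots on the B. clausii array, and Olfr151 lies on the last spot row.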

How the results depend on the processing

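Genes ranked by mean, by difference from later times, by single arrays or by difference between bacteria kept their direction under all alternatives run. Bounds and genes named only from the lists were not followed singly. The balance of higher and lower genes in some lists turned with median centring, as given above. Of 658 values of the 1 h mean, 646 kept their call, and the 12 that lost it did so with local backgrounds as deposited (adjusted p 0.0515 to 0.511). Of 294 single-array values 84 moved by more than the SD of replicate spots, as did 82 of 158 differences between the bacteria, and 133 of 362 list medians moved by more than the SD of the 2 arrays. Of 460 values of the difference from later times 389 kept it. All 20 named genes lost it with the processed signals (adjusted p 0.0723 to 0.104), the series matrix values (0.0725 to 0.104) and the bacteria averaged within times (0.52 to 0.607). For the 1 h mean 5189 genes were called, against 956 with local backgrounds as deposited, 8373 with median centring, and 1778 to 5830 with 1 array left out. For the difference from later times 2937 were called, against 0 with the processed signals (3378 at an unadjusted p under 0.05), 0 with the series matrix (3385) and 0 with the bacteria averaged (1367). The other counts were 1033 with a normexp offset of 0, 287 with local backgrounds as deposited, 1916 without the filter, 1526 without the bacterium term, and 39 to 3735 with 1 array left out. Past 2-fold with L. acidophilus were 29 genes, against 636 (processed signals), 634 (series matrix), 143 (offset 0), 8 (local backgrounds as deposited) and 3 (3-fold). With B. clausii there were 89, against 1015, 1014, 279 (offset 0), 1952 (median centring) and 5 (3-fold). The bacteria differed past 2-fold in 34 genes, against 929 (processed signals), 941 (series matrix), 216 (offset 0), 196 (median centring), 72 (no filter), 4 (both channels), 15 (without the stretch, chosen after seeing the data) and 4 (3-fold). The cause of these changes was not tested. No paired analysis was possible because each group holds 1 array and the labels give no shared replicate numbers. Arrays of the same time enter the fit through its time term.

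Limits are the single pooled array per bacterium and time, the single dye orientation, and the slides, which coincide with the bacteria. Processed signals spread more over all genes tested. Their SD was 0.448 on the L. acidophilus array and 0.566 on the B. clausii array, against 0.235 and 0.294 in the ratios reported.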

Other observations

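Further gene lists were read at 1 h in the same way, where 18.1% of all genes rose and 16.9% fell. Of 14 phagocytic receptor genes tested 6 rose and 0 fell, among them the scavenger receptor Msr1 (0.46 with L. acidophilus and 0.74 with B. clausii) and the Fc receptor Fcgr4 (0.32 and 0.55). Of 18 antigen presentation genes 7 rose, including H2-Ab1, a class II chain (0.37 and 0.46), and 3 fell, including the immunoproteasome subunit Psmb9 (-0.45 and -0.57). Of 13 BCL2 family genes 5 rose and 3 fell. The pro-apoptotic BH3-only genes Bbc3 (0.60 and 0.76) and Bcl2l11 (0.48 and 0.80) rose, while Bmf fell on its brightest probe. The other Bmf probe, a dim one, read 0.07 and 0.01, and the call of Bmf was lost with local backgrounds as deposited. Of 14 heat-shock chaperone genes 4 rose, with the mitochondrial chaperonin Hspd1 at 0.40 and 0.42, and 2 fell, with the co-chaperone Bag3 at -0.46 and -0.62. With median centring the counts were 0 higher and 3 lower for phagocytic receptors, 0 and 7 for antigen presentation, 0 and 7 for the BCL2 family, and 0 and 9 for heat-shock chaperones.

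Over all genes 18.1% rose and 16.9% fell at 1 h, against which the next counts are to be read. Of 26 cell cycle genes 7 rose and 7 fell, with the proliferation marker Mki67 at 0.40 with L. acidophilus and 0.77 with B. clausii and the kinase Cdk4 at -0.55 and -0.58. Of 24 splicing factor genes 8 rose, Hnrnpk among them (0.70 and 0.66), and 7 fell, Hnrnpc among them (-0.36 and -0.94). Of 16 actin cytoskeleton genes 2 rose, Capg among them (0.29 and 0.46), and 7 fell, Pfn1 among them (-0.47 and -0.39). With median centring 0 cell cycle genes were called higher and 21 lower, 1 and 16 splicing factor genes, and 0 and 14 actin genes. Of 9 macrophage markers tested 5 rose and 1 fell (4 and 1 of 8 without the stretch of spots on the B. clausii array), Lyz2 being the highest (0.76 and 1.03) and Spi1, the myeloid factor PU.1, the one that fell (-0.49 and -0.31). Of the markers of other cell types only Lck, a T cell kinase, passed the test (0.24 and 0.20).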
